A study of Arabidopsis thaliana with 16 samples.

Results

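Long loci were defined as transcribed loci on chromosomes 1 to 5 of Arabidopsis thaliana that spanned at least 7000 bases from the first to the last exon and held exactly 1 protein-coding gene of TAIR10 on their strand. A locus is a group of overlapping transcripts that the authors assembled from the reads, and its span includes the introns. The zeocin table held 386 long loci among 20880 loci, and the UV-C table held 299 among 22818, which makes 685 of 43698. Together they held 405 genes, and 279 of these were held by a long locus in both tables. Every other locus on these chromosomes that held 1 protein-coding gene is called a shorter locus here, and there were 18796 and 20319 of them. Of all nuclear loci of 7000 bases or more, 490 in the zeocin table and 348 in the UV-C table, 90 and 43 held several protein-coding genes and 14 and 6 held none, and these were left out.

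RNA from Col-0 seedlings, a standard wild-type strain, was sequenced, by strand, after 15 days of growth in vitro and after removal of ribosomal RNA, as the labels state. Seedlings treated with zeocin at 200 microg/ml for 3 h (n = 5) were compared with mock seedlings (n = 5), and seedlings exposed to UV-C at 8 kJ/m2 (n = 3) with a mock group of their own (n = 3). The sources used here do not give the time from UV-C to harvest. The aim of the study was to find non-coding RNAs that act when double-strand breaks are repaired, so the protein-coding loci described here were measured in passing. The labels do not say whether replicates were separate cultures, and the p-values therefore speak only of the spread among these libraries, possibly a technical one. The comparisons had no library in common, were counted on separate assemblies, and were each analysed alone.

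Zeocin belongs to the bleomycin family, which cuts both strands of DNA. UV-C links neighbouring pyrimidines into dimers, and such a dimer in the transcribed strand can stop RNA polymerase II. Long genes in Arabidopsis are rich in introns and mostly encode very large proteins: kinases of the PI3K-like family such as ATM, ATR and TOR, catalytic subunits of DNA and RNA polymerases, chromatin remodellers, callose synthases, myosins, ubiquitin ligases and lipid transfer proteins of the VPS13 family.

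Short sequences near the starts of the zeocin-responsive long loci are shown because SOG1, the plant transcription factor that ATM and ATR activate after breaks, is known to bind CTT and AAG with 7 bases of any kind between them, a motif that reads the same on both strands. It was searched from 250 bases before to 250 bases after the first base of each assembled locus. It was present at 6 of the 10 long loci and 349 of the 913 shorter loci (38.2%) that rose by at least 1 (log2) after zeocin, at 52 of all 386 long loci (13.5%) and at 3587 of 18108 single-gene loci tested (19.8%). In the 250 bases before the start alone it was present at 1 of the 10, 194 of the 913 (21.2%), 26 of the 386 (6.74%) and 1755 of the 18108 (9.69%). Each site below is written 5′ to 3′ on the strand of its gene from RefSeq TAIR10.1, with the fixed letters of the motif in capitals and 8 bases on each side.
GMI1, chr5:8262507-8262535, minus strand, 59 bases after the start: tgtcgtttCTTccaaacaAAGattctttt
POL2A, chr1:2591044-2591072, plus strand, 131 bases after the start: gatttgggCTTttctctgAAGgtgaaacc
AT4G24610, chr4:12708055-12708083, minus strand, 92 bases after the start: tgagaaagCTTtctgattAAGctttcgtc
AT4G24610, chr4:12707972-12708000, minus strand, 175 bases after the start: aaaaatctCTTctagagaAAGacttcatt
AT1G05030, chr1:1447272-1447300, minus strand, 12 bases after the start: ggtctcttCTTttctttcAAGtctttatt
ABCC11, chr1:10748430-10748458, plus strand, 106 bases after the start: gtttgcttCTTcccctaaAAGccgatctc
SNC1, chr4:9505848-9505876, minus strand, 95 bases before the start: aaaaatatCTTgtacagtAAGtcttctat
SNC1, chr4:9505736-9505764, minus strand, 17 bases after the start: aacaatatCTTgtatagtAAGtcttctat
The site of AT1G05030 lies at the start of its locus, which is far upstream of the annotated gene. The assembled start of POL2A lies inside its annotated gene, and the site shown is therefore well downstream of the annotated start. The windows of CALS4, EMB2773, FANCD2 and RFC1, which also rose by at least 1, held no match, which says only that these letters are not in those windows. Around the start of the annotated gene in place of the assembled locus the motif was found at 4 of the 10, 323 of the 913, 62 of the 386 and 3448 of the 18108. There POL2A and AT4G24610 had no match, and AT1G05030 had a different site, 9 bases before the annotated start. A match is a match of letters and no measurement of binding.

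The long loci differed from shorter loci in structure and level as well as in span. Their median span was 8402 bases in the zeocin table and 8539 in the UV-C table, against 2047 and 1825 bases for shorter loci, and the longest were ATM at 27165 bases in the zeocin table and MDN1, which encodes the ribosome assembly ATPase midasin, at 26041 bases in the UV-C table. A median of 23 exons was assembled per long locus in each table, against 4 and 3, and introns made up a median of 44.1% and 44.5% of the span, against 27.9% and 25.4%. GC content was a little lower, at 38.4% in both tables against 39.2% and 39.1%. Per kilobase of exon, the median mock level was 11.5 CPM (counts scaled to the library total) against 6.50 in the zeocin table and 6.52 against 3.63 in the UV-C table. The highest levels per kilobase were those of the glutamate synthase genes, GLT1 at 222 CPM in the zeocin mock and GLU1 at 99.97 CPM in the UV-C mock, whereas ATM stood at 4.51 and ATR at 1.04 in the zeocin mock. Exons of the long locus covered at least 80% of the annotated gene in 365 of 386 and 277 of 299 cases. In 9 and 7 cases the gene made up less than 50% of the locus. The median standard error of the log2 fold change was 0.10 for long loci and 0.13 for shorter ones after zeocin, and 0.08 and 0.13 after UV-C.

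The threshold fell within a continuous range of spans. In the zeocin table loci just inside it were TIC (7012 bases, log2 fold change -0.15) and AT1G52360 (7020, -0.02), and just outside it were AT3G10180 (6995, 0.19), SEC (6991, 0.47) and AT1G45160 (6987, -0.04). In the UV-C table AT1G62130 (7000, 0.34), ARA1 (7006, -0.97) and AT5G42950 (7018, 0.04) stood just inside, and CCC1 (6996, 0.26), AT1G06590 (6978, 0.44) and ADL6 (6969, -0.21) just outside.

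Total counts ranged from 31185080 to 44536500 per library in the zeocin experiment and from 27973871 to 37507136 in the UV-C experiment. Leaf and root markers were detected in every group. The summed level of 3 root markers (NRT2.1, PHT1;1 and CASP1) was 159 to 229.6 CPM in zeocin mock and 56.4 to 71.9 CPM after zeocin, and all 3 fell, while none of the 3 leaf markers (RBCS1A, LHCB1.3 and PSBO1) was called. After UV-C the leaf sum went from 17251 to 18661 CPM to 11649 to 12246 CPM with 3 of 3 called lower, and the root sum from 23.0 to 45.5 CPM to 10.2 to 22.4 CPM with 2 of 3 called lower. The plastid share of all counts was 44.2% to 46.8% in UV-C mock and 36.98% to 40.5% after UV-C; scaling by nuclear loci alone left 47 rises and 121 falls among long loci. The part of the marker shifts in the results was not tested, and in bulk samples fewer cells of a type and less RNA per cell cannot be told apart.

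The libraries differed in how much of their RNA came from long loci before any treatment is considered. Of the counts in single-gene loci, long loci held 6.08%, 5.85%, 5.85%, 6.27% and 5.01% in zeocin mock replicates 1 to 5 and 5.78% to 6.0% after zeocin. Replicate 5 of the mock was thus the lowest of the 10 libraries. Its long loci deviated from the mock mean by a median 0.24 (log2) less than its shorter loci did (value -0.24), whereas the other 4 mock libraries ranged from 0.01 to 0.11 and the 5 zeocin libraries from -0.04 to 0.04. Zeocin results are therefore given with and without this library. In the UV-C experiment, long loci held 3.08%, 3.41% and 3.14% of the counts in mock and 2.51%, 2.68% and 2.32% after UV-C, so the groups did not overlap. The same median deviation was -0.06, 0.10 and -0.03 in mock and -0.11, -0.03 and -0.18 after UV-C, and there the groups did overlap.

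**Figure D1:**
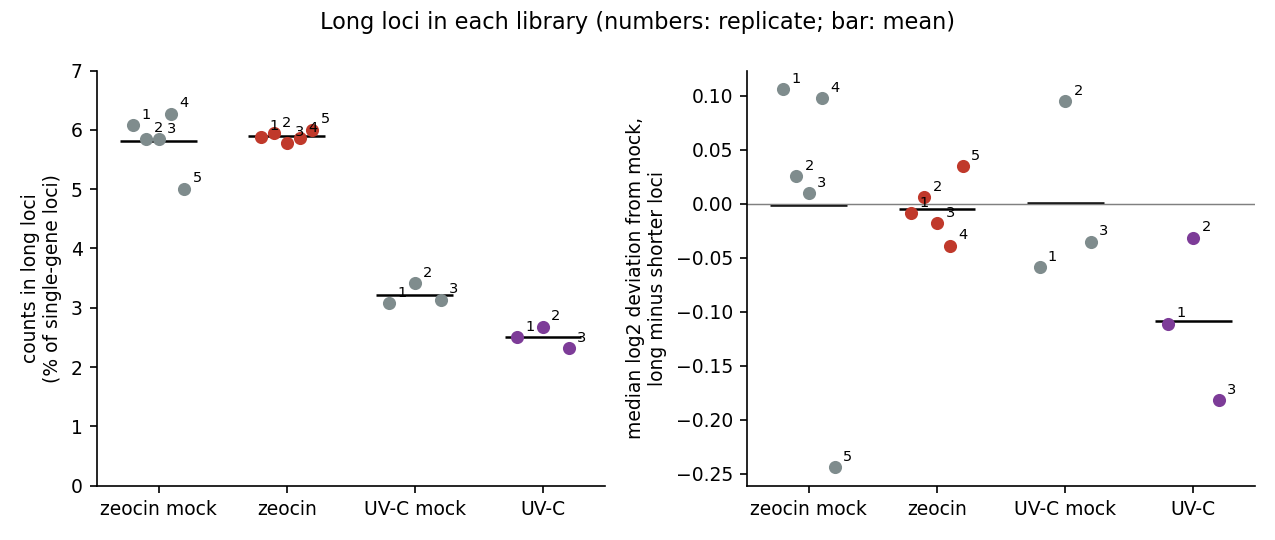
Each point is 1 library, numbered by replicate, and bars are group means. Left, counts in long loci as a percentage of counts in all single-gene loci; right, the median log2 deviation from the mock mean of long loci minus that of shorter loci. Zeocin mock replicate 5 lies at -0.24, and the UV-C libraries lie between -0.18 and -0.03.

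After zeocin the median long locus stood where the median shorter locus did, and the few large rises included genes for DNA replication, repair and cohesion. Of the 386 long loci, 46 rose (11.9%) and 27 fell (6.99%), beside 15.0% and 12.0% of all 19447 loci tested, or 27.0% in either direction (edgeR's quasi-likelihood test, Benjamini-Hochberg adjusted p below 0.05). The median log2 fold change was -0.02 for long and for shorter loci, and the interquartile range was 0.24 and 0.48. Among loci in the highest of 4 equal classes of expression level it was 0.20 for 297 long and 0.36 for 4230 shorter loci. Only 10 long loci changed by at least 1 (log2), all upward, beside 5.16% of all loci that rose and 2.09% that fell that much. Without mock replicate 5, 40 rose and 47 fell (of all loci 14.6% and 10.7%), including 40 of the 46 and 25 of the 27, and the median of long loci minus that of shorter loci was -0.07 in place of 0.00. With upper quartile factors, which shift the median of all loci by -0.06, 36 long loci rose and 50 fell, so that rises made up 41.9% of the calls in place of 63.0%. Of all loci 12.9% rose and 15.8% fell under that scaling, and the difference between the medians of long and shorter loci stayed at 0.00. Without zeocin replicate 2, 35 rose and 17 fell.

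**Figure D2:**
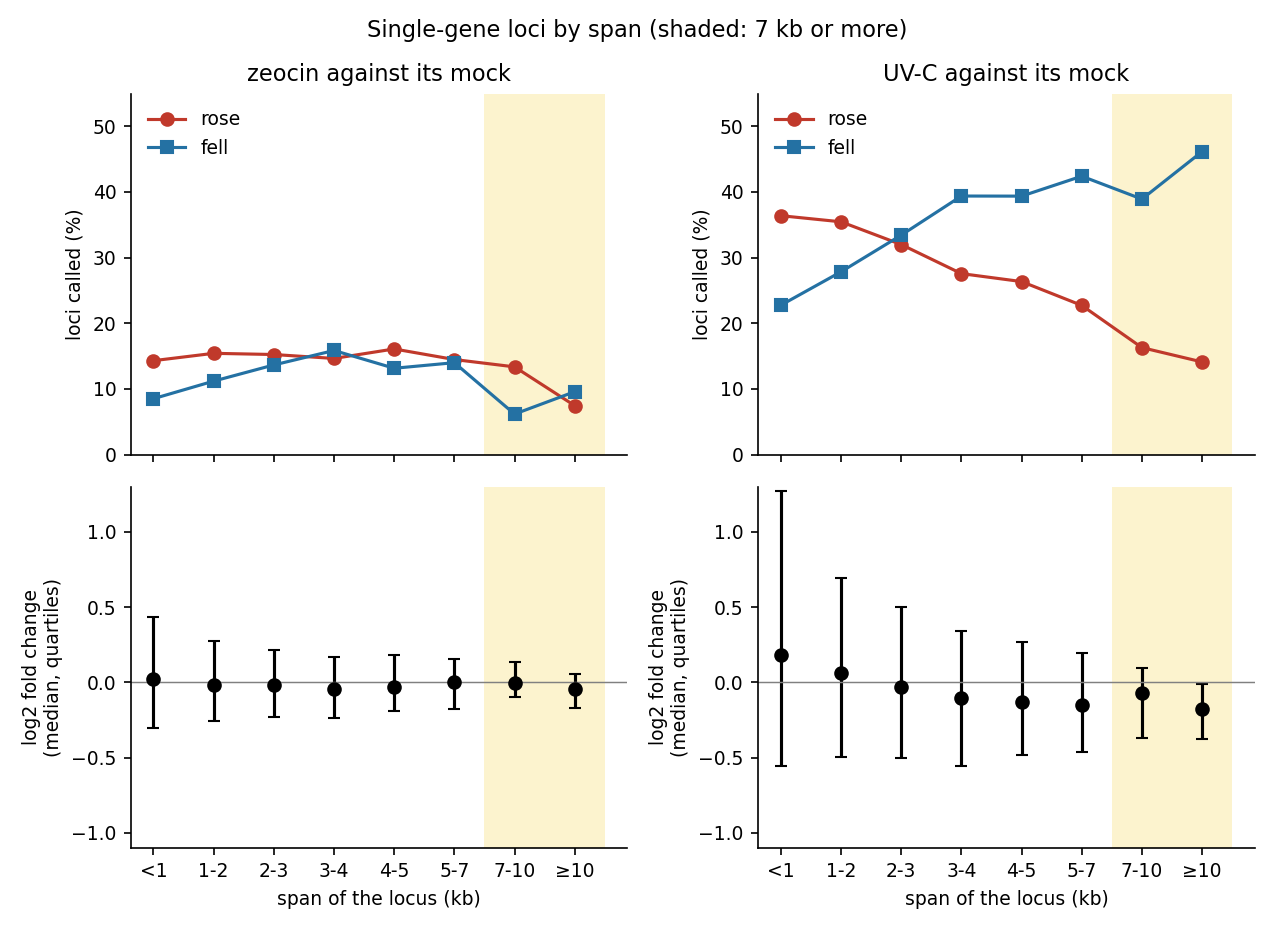
Single-gene loci grouped by span, with loci of 7 kb or more shaded. Above, the percentage called higher (circles) or lower (squares); below, the median log2 fold change with its quartiles. After UV-C the share that rose goes from 36.4% below 1 kb to 14.1% at 10 kb or more, and after zeocin the spread of the values narrows from short to long loci.

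GMI1, which encodes a protein with an SMC-like hinge domain used in recombinational repair, had the largest rise of all long loci. It was measured at 9.10, 12.96, 10.96, 12.9 and 5.47 CPM in the 5 mock libraries and at 445, 472, 410.2, 420.3 and 418 CPM after zeocin (chromosome 5, 8251427 to 8262586, minus strand, 39 exons). Every zeocin library was far above every mock library, and the log2 fold change was 5.40 ± 0.22 (SE; adjusted p = 1.47e-09). Without mock replicate 5, which had the lowest mock value, it was 5.24. EMB2773, the Arabidopsis SCC2 gene for the loader of cohesin, went from 63.8, 56.3, 54.3, 54.4 and 44.5 CPM to 301, 339, 294, 309.9 and 322 CPM, again with no overlap (2.52 ± 0.10, adjusted p = 7.97e-11). Among other genes of chromosome structure the SMC gene SMC6B rose by less, from 10.9 ± 1.11 to 14.9 ± 1.44 CPM (mean ± SD, n = 5; log2 fold change 0.44 ± 0.10, adjusted p = 0.00502). The cohesin subunit gene SMC3 was not called, at 0.14 (adjusted p = 0.275).

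The catalytic subunits of the replicative DNA polymerases went different ways. POL2A, the catalytic subunit of DNA polymerase epsilon that copies the leading strand, was measured at 31.8, 35.7, 32.6, 36.5 and 26.97 CPM in mock and 849, 1111, 978, 918 and 939.7 CPM after zeocin. The groups were far apart, with a log2 fold change of 4.87 ± 0.12 (adjusted p = 4.33e-13), and the locus (chromosome 1, 2590921 to 2607431, plus strand) covered 73.9% of the annotated exons. ICU2, the catalytic subunit of DNA polymerase alpha, which starts each new strand, fell from 19.8, 18.99, 21.1, 24.04 and 18.3 CPM to 11.8, 11.6, 12.7, 10.1 and 12.7 CPM. Its groups did not overlap either (log2 fold change -0.79 ± 0.10, adjusted p = 3.22e-05; 75.5% of the gene covered). POLD1, the catalytic subunit of polymerase delta, was not called at 0.10 (adjusted p = 0.541), nor was REV3, the translesion polymerase zeta subunit, at 0.26 (adjusted p = 0.0523). Leaving out 1 library moved the adjusted p of REV3 below the threshold in 3 cases, zeocin mock 1 or 2 or zeocin 1, and DESeq2 on all libraries also called it (adjusted p = 0.0491). RFC1, the large subunit of the clamp loader that places PCNA on DNA, went from 27.6, 26.7, 25.99, 25.9 and 23.2 CPM to 104, 120.0, 109.8, 107 and 116 CPM, a change of 2.11 ± 0.08 (adjusted p = 2.83e-11) without overlap.

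Some repair genes that act at blocked forks also rose. AT4G14970, annotated as Fanconi anemia group D2 protein and called FANCD2 here, was measured at 7.49, 7.14, 8.33, 9.12 and 6.46 CPM in mock and 35.7, 39.98, 36.9, 32.8 and 43.5 CPM after zeocin. All zeocin libraries lay above all mock libraries (2.29 ± 0.11, adjusted p = 8.72e-10). FANCM, a helicase of the same pathway, rose from 3.67 ± 0.701 to 5.72 ± 0.824 CPM (0.64 ± 0.16, adjusted p = 0.00787), but its groups overlapped. Of 9 long loci on the list of repair, helicase and SMC genes 3 rose and none fell, beside 15.0% and 12.0% of all loci tested. The median log2 fold change of the 9 was 0.13, beside -0.02 for all loci tested. BRCA2A, on the same list, was counted as 3 shorter loci, at -0.99 (adjusted p = 0.0617), -1.22 and -0.88 (adjusted p = 8.99e-04) from first to last. SMC6A, also counted in parts, was not called in its first or last part (-0.09 and 0.32).

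The kinases that sense DNA damage were not called themselves. Among 5 long loci for PI3K-like kinases and their relatives the log2 fold changes ran from -0.09 to 0.36. ATM, the kinase activated by breaks, stood at 43.6 ± 6.96 CPM in mock and 41.00 ± 4.42 CPM after zeocin, with overlapping groups (-0.09 ± 0.11, adjusted p = 0.607). ATR, its relative that responds to single-stranded DNA, went from 9.66 ± 2.52 to 12.4 ± 0.244 CPM (0.36 ± 0.15, adjusted p = 0.0851), and without mock replicate 1 the change was 0.51 (adjusted p = 0.00652). A fit with replicate number as a block also called ATR higher (0.40, adjusted p = 0.0359). TOR, the growth-regulating kinase, was at -0.03 (adjusted p = 0.888).

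Other rises of at least 1 came from genes with no stated part in DNA repair. AT4G24610, whose product carries only the database name pesticidal crystal cry8Ba protein, was measured at 25.9, 24.9, 23.7, 24.5 and 22.7 CPM in mock and 127, 136, 114, 121 and 125 CPM after zeocin, with no overlap (2.36 ± 0.08, adjusted p = 7.95e-12). CALS4, a callose synthase gene, was barely detected in mock at 0.545, 0.348, 0.271, 0.401 and 0.254 CPM and reached 4.45, 4.65, 4.38, 5.09 and 3.82 CPM (3.62 ± 0.22, adjusted p = 1.32e-08). Its locus covered only 35.6% of the gene. AT1G05030, a sugar transporter-like gene of the major facilitator superfamily, went from 12.5 ± 1.98 to 48.1 ± 6.25 CPM (1.95 ± 0.12, adjusted p = 1.60e-08), but its exons made up only 29.9% of the locus, so its value is not that of the gene alone. ABCC11, an ABC transporter of the multidrug resistance-associated class, rose from 16.02, 18.5, 13.5, 12.4 and 14.3 to 28.6, 37.8, 35.95, 30.6 and 42.04 CPM (1.23 ± 0.13, adjusted p = 4.78e-06). Its tandem neighbour ABCC12 fell from 40.2 ± 8.02 to 30.1 ± 2.94 CPM (-0.42 ± 0.13, adjusted p = 0.0240), its groups overlapped, and because fragments mapping to several places were not counted, values for such similar copies are uncertain.

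**Figure D3:**
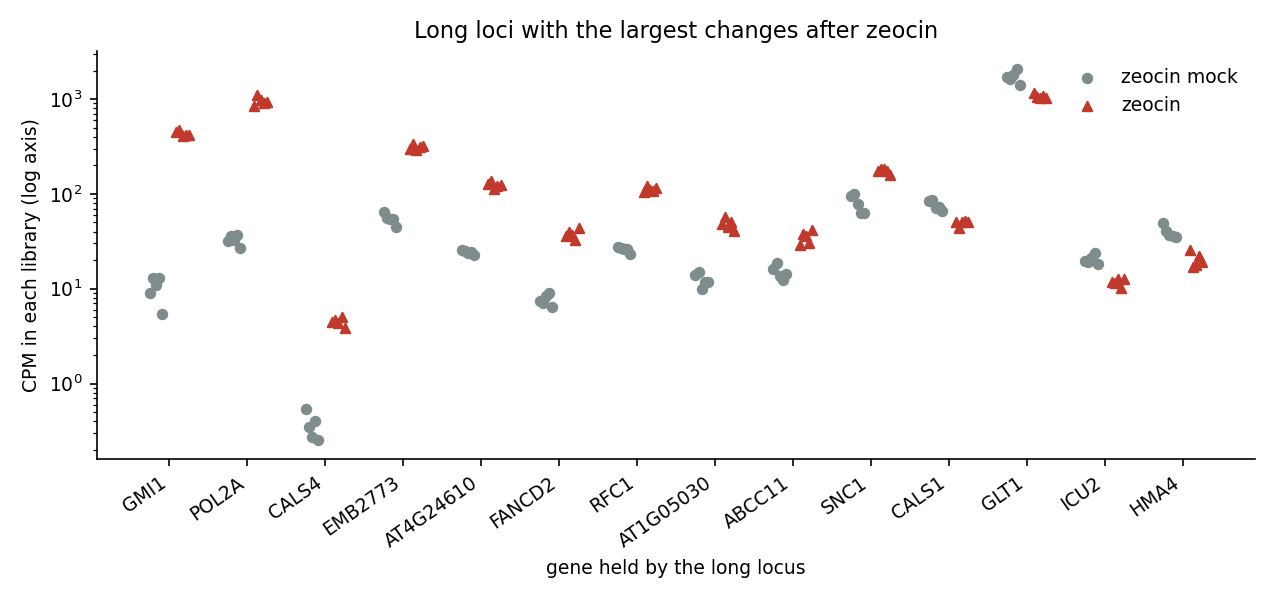
CPM in each library, on a log axis, for 14 long loci with large changes after zeocin; circles are the 5 mock and triangles the 5 zeocin libraries. All 5 zeocin values of POL2A lie far above its mock values, and the 4 loci at the right end (CALS1, GLT1, ICU2, HMA4) fall without overlap.

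Immune receptor genes of the NLR class, intracellular sensors of pathogens, rose at all 4 long loci that held one, beside 15.0% of all loci. SNC1 was measured at 95.1, 99.4, 77.3, 62.3 and 62.8 CPM in mock and 176, 183, 185, 174 and 158 CPM after zeocin, without overlap (1.14 ± 0.13, adjusted p = 1.17e-05). RPS6 rose by 0.72 ± 0.10 (adjusted p = 8.41e-05), AT1G58602 by 0.41 ± 0.10 (adjusted p = 0.00869) and AT4G19520 by 0.47 ± 0.16 (adjusted p = 0.0473). The groups of AT4G19520 overlapped, and its call was lost without mock replicate 5 (adjusted p = 0.0852). NLR genes lie in clusters of similar copies, and this group was put together after the values were seen.

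Callose synthases, which make the glucan of new cell plates and plasmodesmata, moved both ways, with 2 of 9 higher and 3 lower. Of all loci tested 15.0% rose and 12.0% fell. CALS1, which acts at the cell plate, fell from 83.3, 85.8, 71.3, 72.7 and 66.8 CPM to 51.03, 43.9, 50.8, 51.8 and 50.9 CPM, without overlap (-0.61 ± 0.09, adjusted p = 9.72e-05). CALS8 fell, to a log2 fold change of -0.51 (adjusted p = 0.0118) with overlapping groups. CALS7, the isoform of the phloem sieve plates, rose from 6.60 ± 1.27 to 10.1 ± 0.695 CPM (0.62 ± 0.13, adjusted p = 0.00222). The kinesins POK1 and POK2, which orient the plane of division, both fell, with log2 fold changes of -0.63 ± 0.15 (adjusted p = 0.00598) and -0.61 ± 0.11 (adjusted p = 0.00111), and the groups of POK1 overlapped. The microtubule genes MOR1 and CLASP were not called, at -0.04 and -0.10.

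Besides ICU2, the largest falls were those of a metal transporter and a glutamate synthase, and no fall reached 1 on the log2 scale. HMA4, a zinc exporter that loads the root xylem, fell from 48.9, 40.3, 36.4, 35.5 and 35.1 CPM to 25.3, 16.8, 17.8, 22.4 and 19.1 CPM without overlap (-0.95 ± 0.13, adjusted p = 4.98e-05), beside the 3 root markers that also fell. GLT1, the NADH-dependent glutamate synthase gene, fell from 1724, 1617, 1815, 2061 and 1403 CPM to 1157, 1051, 1029.9, 1087 and 1037 CPM, again without overlap (-0.68 ± 0.11, adjusted p = 2.65e-04). GLU2, a ferredoxin-dependent glutamate synthase, fell by less (-0.34 ± 0.10, adjusted p = 0.0172) and lost its call without mock replicate 3 (adjusted p = 0.0509) or 4 (adjusted p = 0.05003). The tRNA ligase gene RNL (-0.43 ± 0.09, adjusted p = 0.00159), the calcium pump gene ACA8 (-0.41 ± 0.09, adjusted p = 0.00253) and the nuclear pore membrane gene GP210 (-0.33 ± 0.08, adjusted p = 0.00560) fell without overlap. ACA10, another plasma membrane calcium pump, rose from 114 ± 12.7 to 173 ± 5.87 CPM (0.60 ± 0.09, adjusted p = 1.33e-04).

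Smaller rises were found at 1 of 4 histone methyltransferase genes, 1 of 3 Dicer-like genes and 1 of 7 large ubiquitin ligase genes. Of all loci tested 15.0% rose. ATX1, a trithorax-type histone methyltransferase, rose from 8.43 ± 1.21 to 12.97 ± 1.49 CPM (0.62 ± 0.12, adjusted p = 0.00120), while its paralog ATX2 was at -0.02 (adjusted p = 0.879). UPL4, a HECT ubiquitin ligase, rose by 0.62 ± 0.10 (adjusted p = 3.30e-04), the only call among 7 long loci for large ubiquitin ligases. The Dicer-like gene DCL4 rose by 0.33 ± 0.10 (adjusted p = 0.0231), with overlapping groups, and its call was lost in 5 of the 10 fits that left out 1 library, mock replicate 5 among them (adjusted p = 0.0514), and with upper quartile factors. Of 10 myosin genes 3 rose, beside 15.0% of all loci, among them XI-K by 0.26 ± 0.07 (adjusted p = 0.0142) and XI-H by 0.29 ± 0.08 (adjusted p = 0.0154). The third, VIIIA (0.25 ± 0.08, adjusted p = 0.0265), lost its call in 5 of the 10 fits that left out 1 library and with upper quartile factors. No long locus was called among 8 chromatin remodelling ATPases and relatives, 7 of the BEACH and VPS13 families, 5 largest subunits of RNA polymerases, 4 ARF exchange factors, 4 for splicing and RNA turnover, 3 lipid kinases and 2 Mediator subunits. Without mock replicate 5, however, the VPS13-family gene AT4G17140 was called lower (-0.23, adjusted p = 0.0438). So was the ARF exchange factor gene BIG1 (-0.27, adjusted p = 0.0460). Over all 21 lists 104 long loci were measured, of which 13 rose and 9 fell, beside 15.0% and 12.0% of all loci tested. The longest genes belong here: MDN1 was at -0.29 ± 0.12 (adjusted p = 0.0948), and at -0.38 (adjusted p = 0.0106) without mock replicate 5. Among the 94 long loci of 10000 bases or more 7 rose and 9 fell.

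After UV-C, long loci fell more often than they rose, and large changes were rarer than among shorter loci. Of 299 long loci 47 rose (15.7%) and 122 fell (40.8%), beside 33.6% and 30.9% of all 19587 loci tested, or 64.4% in either direction (edgeR's quasi-likelihood test, Benjamini-Hochberg adjusted p below 0.05). The median log2 fold change was -0.11 for long and -0.01 for shorter loci, and the interquartile range was 0.46 and 1.09. Only 3 long loci rose and 12 fell by at least 1 (log2), beside 18.2% and 10.1% of all loci. The median of long minus shorter loci, -0.10, was of the size of the spread between libraries (SD 0.08 over the 3 UV-C libraries), and it ran from -0.14 to -0.06 when 1 library was left out. With upper quartile factors, which shift the median of all loci by -0.11, 32 rose and 150 fell, so that rises made up 17.6% of the calls in place of 27.8%, while the difference between long and shorter loci stayed at -0.10.

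The share of loci that rose after UV-C went down step by step with span. It was 36.4% below 1000 bases, 35.5% from 1000, 32.0% from 2000, 27.6% from 3000, 26.3% from 4000, 22.7% from 5000, 16.3% from 7000 and 14.1% from 10000 bases. The share that fell went up from 22.8% below 1000 bases to 39.4% from 3000 bases and changed little beyond, reaching 46.2% at 10000 or more. The interquartile range narrowed with span, from 1.83 below 1000 bases to 0.37 at 10000 or more. Long loci are also better expressed, and within the highest of 4 level classes 226 long loci had an interquartile range of 0.44 and 4351 shorter loci one of 1.07. After zeocin the share that rose stayed between 13.4% and 16.1% up to 10000 bases, and was 7.45% above.

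Among long loci the values after UV-C were lower where exons were more numerous. Long loci of 19 exons or fewer had a median log2 fold change of 0.02, with 23 of 109 higher and 26 lower. Those with 20 to 29 exons had a median of -0.19 (17 of 122 higher, 58 lower), and those with 30 or more -0.22 (7 of 68 higher, 38 lower). Spearman's correlation of the log2 fold change over the 299 long loci was -0.26 with exon number, -0.29 with the intron share of the span, 0.15 with exonic length, 0.22 with GC content and -0.12 with span, given as a description of loci that share the same 6 libraries. Shorter loci with as many exons were not higher throughout, and with 5 to 19 exons their medians were lower. With at least 5 and under 10 exons the median was -0.04 for 5247 shorter and 0.23 for 15 long loci. With at least 10 and under 15 it was -0.13 for 1904 shorter and 0.03 for 37 long loci. The median was -0.24 for 547 shorter and -0.03 for 51 long loci with 15 to 19 exons, and -0.18 for 182 shorter and -0.19 for 122 long loci with 20 to 29. The shares of shorter and long loci that fell were 49.5% and 27.5% with 15 to 19 exons, and 46.2% and 47.5% with 20 to 29. With at least 2 and under 5 exons the medians were 0.03 for 7159 shorter and -0.09 for only 5 long loci.

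Starch metabolism held the largest fall. SEX1, the glucan water dikinase that phosphorylates starch to start its breakdown, was measured at 412, 417 and 373 CPM in the 3 mock libraries and at 31.1, 32.02 and 31.6 CPM after UV-C (chromosome 1, 3581041 to 3590691, minus strand, 33 exons). The groups were far apart, with a log2 fold change of -3.66 ± 0.08 (adjusted p = 3.71e-10). LDA, the limit dextrinase that removes branches from starch, went from 26.6, 29.7 and 25.8 CPM to 5.72, 5.94 and 5.49 CPM (-2.26 ± 0.09, adjusted p = 1.35e-08). EMB2729, an alpha-amylase family protein related to starch branching enzymes, went from 14.7, 20.1 and 14.5 CPM to 6.59, 5.77 and 4.23 CPM (-1.57 ± 0.18, adjusted p = 7.44e-05). In all 3 genes every UV-C library was below every mock library, and the 3 leaf markers fell as well. These 3 were grouped after their values were seen.

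Transport, signalling and membrane genes gave the next falls. ACA8, a calcium pump of the plasma membrane, went from 93.4, 101 and 88.9 CPM to 18.2, 20.5 and 19.7 CPM without overlap (-2.28 ± 0.08, adjusted p = 6.54e-09). AT3G01310, a phosphoglycerate mutase-like gene, went from 125, 128 and 117 CPM to 26.3, 28.9 and 26.5 CPM (-2.18 ± 0.08, adjusted p = 4.99e-09), also without overlap. AT4G17140, a VPS13-family gene and with 23480 bases and 62 exons one of the longest, went from 174, 192 and 166 CPM to 57.3, 67.8 and 64.3 CPM (-1.49 ± 0.09, adjusted p = 2.01e-07). Its groups were well apart. AT2G25730, a FYVE-domain zinc finger gene of 16578 bases, went from 78.5 ± 5.72 to 29.1 ± 1.03 CPM (mean ± SD, n = 3; -1.43 ± 0.08, adjusted p = 1.11e-07). The kinesin motor gene AT2G21380 went from 46.5 ± 3.59 to 16.95 ± 1.08 CPM (-1.45 ± 0.09, adjusted p = 2.01e-07). PHYLLO, which encodes a chloroplast enzyme of phylloquinone synthesis, was at -1.21 ± 0.10 (adjusted p = 1.96e-06). Others that fell by at least 1 were AT5G47020 (-1.43), AT5G60930 (-1.41) and EMB2247 (-1.003). PHYLLO and these 3 were chosen after their values were seen.

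**Figure D4:**
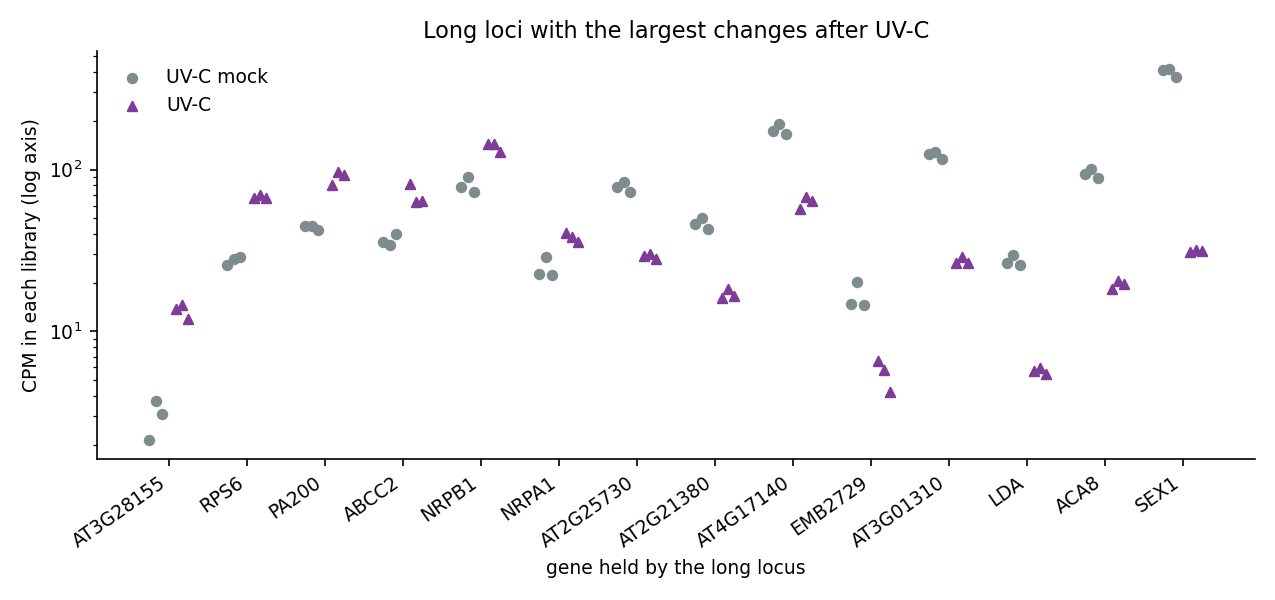
CPM in each library, on a log axis, for 14 long loci with large changes after UV-C; circles are the 3 mock and triangles the 3 UV-C libraries. SEX1, at the right, goes from 373 to 417 CPM down to 31.1 to 32.0 CPM, and the 6 loci at the left rise without overlap.

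Most callose synthase and myosin genes at long loci fell after UV-C, beside 30.9% of all loci. Of 5 long loci for callose synthases 4 fell, with a median of -0.45 beside 0.00 for all loci tested. CALS1 was measured at 49.8, 38.8 and 49.5 CPM in mock and 21.2, 25.5 and 25.9 CPM after UV-C, without overlap (-0.93 ± 0.12, adjusted p = 7.07e-05). CALS2, CALS9 and CALS3 were at -0.54, -0.45 and -0.38 (adjusted p = 1.61e-04, 7.20e-04 and 0.00689). All 5 myosins at long loci fell, from -0.74 ± 0.10 for ATM1, a class VIII myosin (adjusted p = 1.29e-04), to -0.20 ± 0.07 for XI-2 (adjusted p = 0.0251). The call of XI-2 was lost in 4 of the 6 fits that left out 1 library and with DESeq2. Genes of both families counted as several shorter loci did not fall in the same way. The first and last parts of the myosin gene VIIIA rose (1.48 and 0.82), as did those of CALS8 (0.64 and 1.40) and the last part of CALS6 (0.47). For XI-B, XI-F, XI-G, XI-J and XI-K neither the first nor the last part was called. Of 6 long loci of the BEACH and VPS13 families 3 fell, and the list median was -0.28. Among 3 nuclear pore genes GP210 (-0.34) and NUP205 (-0.33) fell, and NUA was at -0.01; the call of GP210 was lost in 3 of the 6 fits that left out 1 library.

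ATM and the growth kinase TOR fell modestly. The UV-C assembly split ATM into 3 loci, of which the first and second were long. The first (chromosome 3, 17801293 to 17810055, plus strand) went from 11.9, 13.95 and 11.4 CPM to 7.49, 7.20 and 7.41 CPM (-0.75 ± 0.10, adjusted p = 1.03e-04). The second went from 6.63, 8.20 and 7.64 CPM to 5.26, 5.01 and 3.69 CPM (-0.68 ± 0.15, adjusted p = 0.00248), and the third, which is no long locus, was at -0.62 (adjusted p = 0.00201). All 3 parts of the gene were thus called lower. TOR went from 63.9, 69.1 and 66.3 CPM to 50.1, 57.1 and 54.4 CPM (-0.30 ± 0.07, adjusted p = 0.00471), with no overlap. ATR was counted as 2 shorter loci, at 0.35 (adjusted p = 0.105) and 0.69 (adjusted p = 0.102).

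Of 5 long loci for DNA polymerases and repair genes measured after UV-C, 1 rose and 2 fell, beside 33.6% and 30.9% of all loci. POL2A was measured at 18.3, 24.5 and 21.2 CPM in mock and 32.1, 30.04 and 26.97 CPM after UV-C, without overlap (0.48 ± 0.11, adjusted p = 0.00358). ICU2 (-0.07, adjusted p = 0.677) and REV3 (-0.01, adjusted p = 0.960) were not called. RAD50, a subunit of the break-binding MRN complex, was at -0.28 ± 0.09 (adjusted p = 0.0234) and SMC3 at -0.37 ± 0.12 (adjusted p = 0.0174). Both lost their call in fits that left out 1 library, RAD50 in 3 of 6 and SMC3 in 2 of 6, and RAD50 also with DESeq2. The DNA demethylase gene DME fell, with a log2 fold change of -0.47 (adjusted p = 0.00102), and the remodeller gene PKL was at -0.44 ± 0.10 (adjusted p = 0.00303).

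The largest subunits of RNA polymerases I and II were among the genes that rose. NRPB1, the largest subunit of RNA polymerase II, was measured at 78.1, 90.5 and 73.2 CPM in mock and 144, 144 and 128 CPM after UV-C, without overlap (0.78 ± 0.09, adjusted p = 3.43e-05). NRPA1, the largest subunit of RNA polymerase I, which transcribes ribosomal RNA genes, went from 22.7, 28.8 and 22.3 CPM to 40.8, 38.3 and 35.6 CPM (0.64 ± 0.11, adjusted p = 4.29e-04). NRPA2, the second subunit of the same enzyme, named here after its value was seen, was at 0.62 ± 0.09 (adjusted p = 1.28e-04). NRPC1, NRPD1 and NRPE1, on the same list, were each counted as several shorter loci. The first and last parts of NRPE1 fell (-0.92 and -0.48, adjusted p = 0.0209 and 0.0475). The first part of NRPD1 rose (0.85, adjusted p = 0.00168) and its last part was not called. Neither the first nor the last part of NRPC1 was called. After zeocin NRPB1 and NRPA1 were not called, at -0.08 and -0.28.

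Other loci that rose held genes of proteolysis, transport and immunity, among further genes not named here. PA200, an activator of the proteasome, went from 44.95, 44.8 and 42.1 CPM to 80.1, 96.5 and 93.2 CPM without overlap (1.03 ± 0.08, adjusted p = 2.31e-06). The NLR gene RPS6 went from 25.8, 28.2 and 28.8 CPM to 66.4, 69.3 and 67.2 CPM (1.29 ± 0.07, adjusted p = 1.27e-07), the second largest rise. Of the other 4 NLR loci AT4G19520 (0.88 ± 0.21, adjusted p = 0.00804) and AT1G58848 (0.89 ± 0.22, adjusted p = 0.00434) rose. AT1G58602 fell (-0.79 ± 0.10, adjusted p = 5.80e-05), and AT1G59218 was at 0.99 (adjusted p = 0.2002). Of all loci tested 33.6% rose and 30.9% fell. AT1G58848 stood at only 1.27 ± 0.241 CPM in mock and is one of several near-identical copies, so its value is uncertain. ABCC2, a vacuolar transporter of glutathione and glucoside conjugates, went from 35.8, 34.1 and 40.2 CPM to 81.5, 63.2 and 63.9 CPM (0.92 ± 0.11, adjusted p = 4.64e-05). Its relative ABCC1 rose by 0.26 ± 0.08 (adjusted p = 0.0121), which was not called with upper quartile factors (0.15, adjusted p = 0.105) or without UV-C replicate 2 (0.21, adjusted p = 0.0621). AT4G32920, a glycine-rich protein gene, rose by 0.85 ± 0.14 (adjusted p = 4.71e-04). The largest rise, 2.18 ± 0.18 (adjusted p = 4.48e-06), was at a locus named for AT3G28155, whose exons made up only 4.91% of it.

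Over the 21 lists, 75 long loci were measured after UV-C, of which 7 rose and 26 fell, with a median of -0.09, beside 33.6% and 30.9% of all loci tested. No long locus was called among 4 for splicing and RNA turnover, 4 for membrane coats and development, 3 ARF exchange factors, 3 large enzymes, 2 Mediator subunits and 2 Dicer-like genes. With upper quartile factors, however, GLT1, DEK1, BIG5, DCL2 and DCL4 were called lower, from -0.17 for BIG5 to -0.30 for DCL2. GLT1 was also called lower without mock replicate 3 (-0.26, adjusted p = 0.0133), and DEK1 without UV-C replicate 2 (-0.25, adjusted p = 0.0462). BRR2A was called higher without mock replicate 2 (0.35, adjusted p = 0.00411). PRP8A, the core protein of the spliceosome, was at -0.01 (adjusted p = 0.909), and the clathrin heavy chain genes CHC1 and CHC2 were at 0.11 and 0.08 (adjusted p = 0.168 and 0.324). MDN1, the longest locus of the table, was at 0.10 ± 0.11 (adjusted p = 0.420).

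Not every long gene was counted as 1 long locus. Of annotated genes of 7000 bases or more with a single-gene locus, 34 of 462 were split over several loci in the zeocin assembly and 119 of 457 in that of UV-C. Where the first and the last part were both tested, the last part minus the first had a median of 0.08 in log2 fold change over 108 genes after UV-C, with the last part higher in 71 and lower in 37, and -0.06 over 26 genes after zeocin, with 10 higher and 16 lower. Both parts were called in the same direction in 23 genes after UV-C and 3 after zeocin. The exception was LIG6, a DNA ligase gene, with a first part at 0.37 (adjusted p = 0.0291) and a last part at -0.86 (adjusted p = 0.00308) after UV-C. ABCC11, a long locus in the zeocin table, was split in the UV-C table into parts at 3.29 and 2.75, and RECQ4A, a RecQ helicase gene, into parts at -1.18 and -0.82. GMI1 was represented in the UV-C table by 3 tested fragments of low level, at 0.92 (adjusted p = 0.139), 1.16 (adjusted p = 0.0332) and 1.17 (adjusted p = 0.0230) from the 3′ to the 5′ end. With genes chosen by their own span in place of the span of the locus, 73 rose and 166 fell after UV-C and 55 rose and 35 fell after zeocin. This definition also changes how many loci are counted. Of all loci tested 33.6% rose and 30.9% fell after UV-C, and 15.0% and 12.0% after zeocin.

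The treatments are set side by side for the 279 genes held by a long locus in both tables, which gave 280 pairs because ATM had 2 long loci in the UV-C table. The difference between treatments was not tested here, and the number of libraries differed. Of all loci tested 27.0% were called after zeocin and 64.4% after UV-C. Pairs of shorter loci are not given, so the counts below do not show whether shared calls were more common at long loci. In 109 pairs neither value was called. In 98 the gene fell after UV-C and was not called after zeocin, and in 30 it rose after UV-C and was not called after zeocin. In 11 pairs both rose, among them POL2A, ABCC2, PA200, RPS6 and ACA10, and in 10 both fell, among them SEX1, CALS1, ACA8 and EMB2729, whose zeocin call was lost without mock replicate 5. In 7 the gene rose after zeocin and fell after UV-C. AT4G24610 was the clearest of these: it rose by 2.36 ± 0.08 after zeocin and went from 16.6, 24.00 and 19.2 CPM to 9.84, 11.1 and 10.3 CPM after UV-C (-0.93 ± 0.13, adjusted p = 1.66e-04). PIR121, a subunit of the WAVE complex, which promotes actin branching, was at 0.64 ± 0.08 (adjusted p = 1.85e-05) and -0.53 ± 0.07 (adjusted p = 6.88e-05), and REV1, a translesion polymerase, at 0.31 and -0.29. Only ABCA1 fell after zeocin (-0.33) and rose after UV-C (0.29), where its locus covered 46.5% of the gene, and its zeocin call was lost without zeocin replicate 2 (-0.30, adjusted p = 0.0630). EMB2773, with 2.52 after zeocin, was at -0.10 after UV-C (adjusted p = 0.319). Spearman's correlation over the pairs was 0.21.

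**Figure D5:**
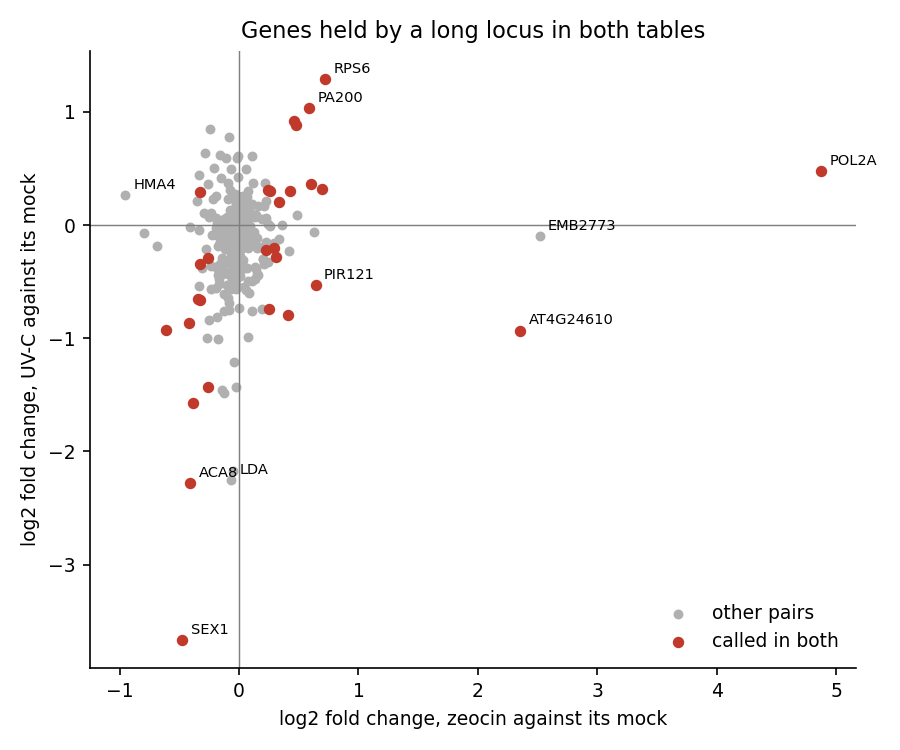
Log2 fold change after zeocin (horizontal) and after UV-C (vertical), each against its own mock, for 280 pairs of long loci that hold the same gene. Red points were called in both tables. POL2A lies far to the right and SEX1 far below, and most other points are spread along the UV-C axis close to 0 on the zeocin axis.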

How the data were processed

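The authors deposited raw counts of fragments per assembled locus, 1 table for each experiment, and all sample columns were used. The tools named in the submitters' processing notes include Trim Galore 0.11.8 and the aligner STAR 2.7.1a, with TAIR10 as the build. Per the file headers, StringTie 2.1.5 assembled each experiment from a merged alignment in strand mode and featureCounts (Subread 2.0.1) counted exons by strand, leaving out fragments that map to several places or loci. The zeocin assembly required a coverage of 10 and the UV-C assembly of 1, so the same gene can be 1 locus in one table and several in the other.

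Loci were compared with the RefSeq annotation of TAIR10.1, whose nuclear chromosomes were checked against the files: no coordinate lay past a chromosome end, and 97.7% and 99.7% of the introns of long loci in the zeocin and UV-C tables matched an annotated intron. To hold a gene, a locus had to share exons over 50% or more of either, and genes under 200 bases were ignored beside longer ones. Each table was fitted alone with edgeR 4.0.16 (R 4.3.3): quasi-likelihood test, TMM factors, default filter on low counts, robust dispersions, two-sided, with Benjamini-Hochberg adjustment over all loci tested. All 386 and 299 long loci passed the filter. CPM values are counts scaled to library totals adjusted by TMM. Alternatives were DESeq2 1.42.0, other scalings, filters and definitions of length, a replicate block and leaving out each library.

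Long loci that are named are, in each table, the 8 largest rises and 8 largest falls among those called with at least 1 CPM, groups that do not overlap and at least 80% of the gene covered, the 6 longest, 3 loci on each side of the threshold (1 of which is not reported here) and up to 4 per list of gene families (with ATM, ATR and TOR always). POL2A, ICU2 and CALS4, below 80%, come from the lists; the NLR and starch groups, ABCC12, ACA10, PIR121, REV1, NRPA2, PHYLLO, AT5G47020, AT5G60930, EMB2247 and the genes counted in parts were chosen after their values were seen. The members and lists were chosen with earlier results of these data known, and the motif windows after seeing the data. Counts were also simulated with the same fixed spread at every locus. On these the zeocin fit recovered 50 of 50 doubled and 50 of 50 halved loci and the UV-C fit 48 and 46. For 1.5-fold rises it was 37 and 19 of 50. Figures were drawn with matplotlib from the same values.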

Additional observations from a re-analysis of the deposited data

Results flagged for a closer look

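Of 48 groups of 5 libraries examined, 4 had 1 library far from the others by Dixon's criterion, which chance alone meets in about 1 in 20 groups. In zeocin mock, replicate 5 had a long-minus-shorter deviation of -0.244, against 0.00986 to 0.106 in the other 4. The same library measured the VPS13-family gene AT1G48090, at 26447 bases one of the longest, at 160 CPM, against 225 to 234 CPM. In zeocin mock, replicate 4 measured ACA8 at 48.9 CPM, against 38.8 to 39.9 CPM. After zeocin, replicate 2 measured CALS1 at 43.9 CPM, against 50.8 to 51.8 CPM. The groups of 3 in the UV-C experiment were too small for this criterion.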

How the results depend on the processing

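After zeocin, leaving out 1 library at a time gave 35 to 52 rises, 17 to 47 falls and a median difference between long and shorter loci of -0.066 to 0.027, and after UV-C 35 to 50, 100 to 124 and -0.14 to -0.06. Upper quartile factors gave 50 falls after zeocin. With a span of 5000 bases or more there were 167 rises and 144 falls after zeocin and 204 and 415 after UV-C; with 10000 or more, 7 and 9, and 11 and 36; with an exonic length of 4000 or more, 96 and 63 after zeocin and 129 rises after UV-C; and with the span of the gene 73 rises after UV-C. These settings change how many loci are counted. After zeocin 121 of 836 loci of 5000 to 7000 bases rose and 117 fell, beside 15.0% and 12.0% of all loci. From 7000 to 10000 it was 39 and 18 of 292. The low share of falls at long loci was thus not seen at 5000 to 7000 bases. At an exonic length of 4000 to 5000, 14 of 99 long loci rose and 8 fell, beside 52 and 38 of 262 shorter loci. At 5000 to 6000 it was 10 and 3 of 74, beside 7 and 5 of 45. From 6000 it was 9 and 8 of 114, beside 4 and 1 of 10. The UV-C falls at an exonic length of 4000 or more are given by class. At 4000 to 5000 bases 8 of 71 long loci rose and 36 fell, beside 81 and 74 of 241 shorter loci. At 5000 to 6000 it was 10 and 18 of 52, beside 12 and 8 of 32. From 6000 it was 17 and 31 of 97, beside 1 and 4 of 7. From 4000 to 6000 bases falls thus outnumbered rises among long loci but not among shorter ones. Within classes of exonic length the UV-C median difference was -0.06 at 3000 to 4000 bases, -0.20 at 4000 to 5000 and -0.11 at 5000 to 6000, and from 6000 the medians were -0.06 for 97 long and -0.33 for 7 shorter loci. The other normalizations, DESeq2, the filter and the overlap rules kept each count within 1.5 times. For named genes 2329 values under alternatives kept their direction and side of the threshold, 59 lost and 36 gained the call, and none that was called changed sign; the cause was not tested.

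The labels do not say whether replicate numbers pair the libraries. The correlations of same-numbered libraries were 0.52, 0.01, 0.37, -0.15 and -0.01 in the zeocin experiment and -0.33, -0.03 and 0.19 in that of UV-C. Zeocin libraries 1 and 3 correlated best with the mock library of their own number. A fit with replicate number as a block gave 50 rises and 34 falls after zeocin and 44 and 119 after UV-C, ATR being called after zeocin under it (0.40, adjusted p = 0.0359), and not every library correlated best with its own number. With 3 libraries per group, UV-C changes of 1.5-fold were often missed on simulated counts. The simulated loci were of all lengths and shared the same fixed spread. Among the real long loci, calls after UV-C went down to a log2 fold change of 0.18. How often such changes were missed at long loci was therefore not measured. The absence of a call does not show the absence of a change.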
